A study of Mus musculus with 9 samples.

Results

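A set of 40 genes of lysosomes, autophagy and particle uptake was taken by gene name from a table of 56748 genes measured in pancreatic islets. All 40 were found once, and all 40 were among the 17276 genes with enough counts to be tested. They comprise 6 genes of the lysosomal membrane, 7 cathepsins, 8 other luminal proteins, 4 subunits of the proton pump, 2 transcription factors, 10 autophagy genes and 3 genes of uptake and vesicle damage. RNA libraries were sequenced from primary islets of wild-type C57bl/6 mice in 3 groups of 3 libraries. Particle islets received an inflammatory mixture of the cytokines IL-1beta, TNF-alfa and IL6 together with polydopamine-coated mesoporous silica nanoparticles, named PD-G-MSNPs in the study. Inflamed islets received the same 3 cytokines alone. The cytokine exposure lasted 48 hours in both, and control islets were untreated. The dose of the particles, when they were added and what the letter G stands for are not given in the labels. Islets given particles without cytokines were not analysed here, so the particles are compared only in the presence of cytokines. The age and sex of the mice and the origin of the replicates are not given in the labels, so p-values measure the spread between these libraries, which may be partly technical.

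Lysosomes are acidic organelles that degrade material brought by endocytosis, phagocytosis and autophagy. A proton pump, the V-ATPase, acidifies them, and cathepsins, glycosidases and lipases in the lumen do the digestion. The transcription factors TFEB and TFE3 raise many lysosomal and autophagy genes together through a short palindrome in their promoters, known as the CLEAR element. In beta cells lysosomes also degrade insulin granules, and macrophages resident in islets are rich in lysosomes. Nanoparticles generally enter cells by endocytosis and gather in late endosomes and lysosomes.

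Libraries held 17832949 to 55865759 counts, with inflamed replicate 3 the deepest. Every expression value below is CPM (counts divided by a library total that TMM factors had scaled, on the usual CPM scale) unless stated otherwise. The tissue label was checked against marker lists. The 10 beta cell markers took 8.75% to 24.0% of the scaled total in particle islets, 12.3% to 22.9% in inflamed islets and 34.1% to 36.0% in control islets. The summed level of 21 macrophage markers was 408 to 632 CPM in particle islets, 1272 to 1392 CPM in inflamed islets and 353 to 451 CPM in control islets, and none of the 21 was at 0 in a whole group. The 11 endothelial markers summed to 13.6 to 45.3, 24.2 to 56.6 and 42.0 to 106 CPM in particle, inflamed and control islets. The 7 lymphocyte and neutrophil markers summed to 0.482 to 5.40 CPM in particle islets, 3.30 to 10.7 CPM in inflamed islets and 0 to 0.230 CPM in control islets. Cd3e, Ms4a1 and Nkg7 were at 0 in all 9 libraries. Only 2 of the 7 had enough counts to be tested, and 1 was called higher than in control islets in both other groups. Particle replicate 2 stood apart by its glucagon transcripts, at 0.742% of counts against 0.00744% and 0.0450% in the other two particle libraries. It also held more acinar marker transcripts (3395 CPM summed, against 6.05 CPM in replicate 1 and 229.9 CPM in replicate 3) and more stellate and pericyte marker transcripts (86.3 CPM, against 20.5 and 20.6 CPM). Acinar markers were uneven in the other groups too, at 28.1, 34.6 and 2675 CPM in inflamed islets and 22.6, 1459.5 and 194 CPM in control islets. Glucagon transcripts took 0.00690% to 0.0411% of counts in inflamed islets and 0.635% to 2.30% in control islets. Stellate and pericyte markers summed to 17.5 to 63.2 CPM in inflamed islets and 68.2 to 258 CPM in control islets. In whole islets, fewer cells of a type and less RNA per cell cannot be told apart.

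**Figure D1:**
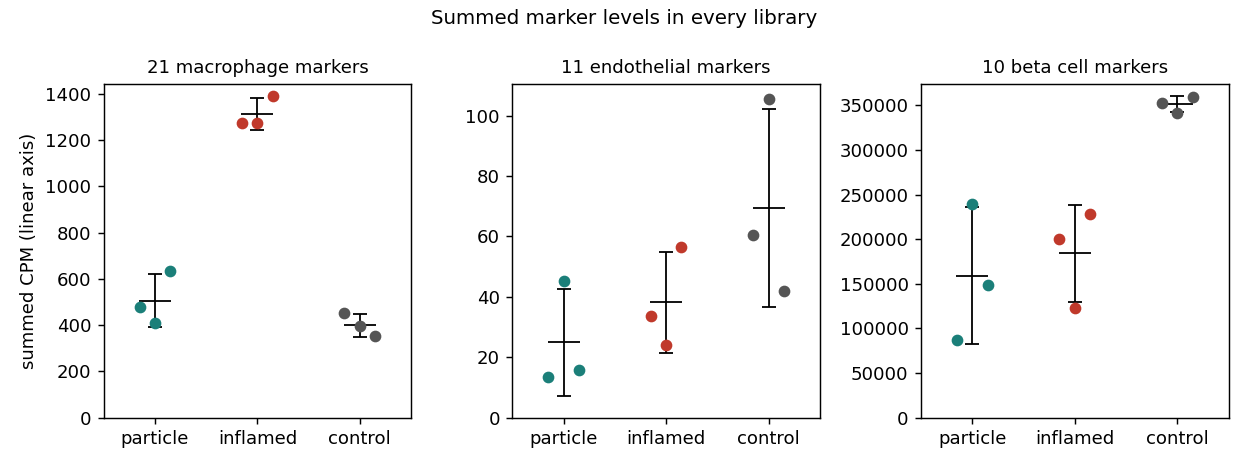
Summed CPM of 21 macrophage, 11 endothelial and 10 beta cell markers (vertical axes, linear from 0) in particle, inflamed and control islets. Points are libraries, and bars are the mean and SD of 3 libraries. The macrophage markers stood at 1272 to 1392 CPM in inflamed islets, above every particle and control library.

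More genes of the set were higher than lower in islets exposed to cytokines. In inflamed against control islets, 21 of the 40 genes rose and 4 fell, and 15 were not called (edgeR's quasi-likelihood test, Benjamini-Hochberg adjusted over all genes tested, threshold 0.05). Of all 17276 genes, 20.7% rose and 19.0% fell, against 52.5% and 10% of the set. At an unadjusted p under 0.05 there were 27 of the 40 genes (67.5%) and 49.1% of all genes. The median log2 fold change was 0.61 over the 40 genes and 0.05 over all genes. Values did not overlap between the groups for 25 genes that were higher and 4 that were lower in inflamed islets, against 28.3% and 28.5% of all genes. The strongest increases were those of Lgals3, Atp6v0d2, Gpnmb, Ctsb, Ctsh and Lipa, genes that macrophages express strongly. The 6 lay between 2.16 and 3.70 on the log2 scale. Over the same libraries 17 of the 20 tested macrophage markers rose and 1 fell, with a median log2 fold change of 2.12. The part of the macrophage signal in these changes was not tested.

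**Figure D2:**
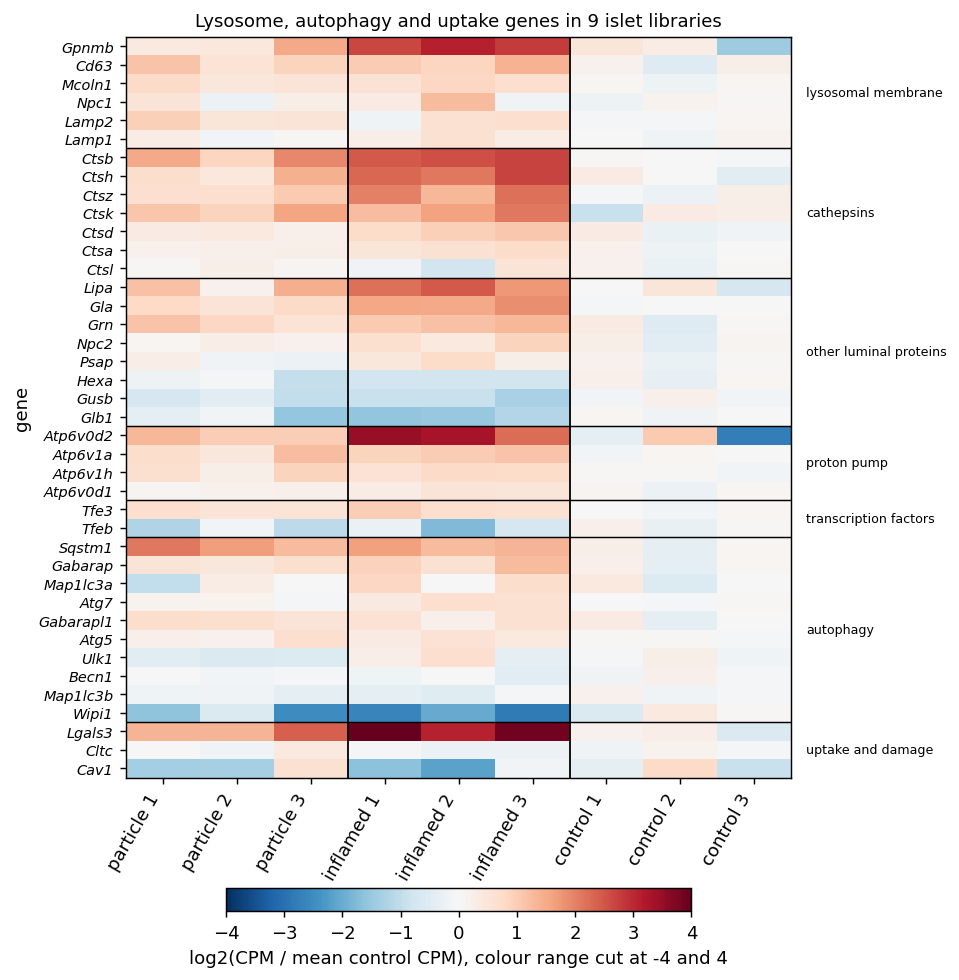
Heat map of 40 genes (rows, grouped by role) in 9 libraries (columns), coloured by log2 of CPM over the mean CPM of control islets. Most rows are red in the inflamed columns, and most rows are paler in the particle columns. Rows that are blue in the inflamed columns include Glb1, Gusb, Hexa and Wipi1, which were called lower, and Tfeb and Cav1, which were not called.

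On a scale per length (CPM per kilobase of gene), levels differed widely among the genes, and their order differed between groups. In particle islets Sqstm1 came first at 815 CPM per kilobase, before Psap at 773 and Cd63 at 318. Psap encodes the precursor of the saposins that help glycolipid digestion. In inflamed islets the order was Psap at 1092, Sqstm1 at 670.4 and Ctsb at 504 CPM per kilobase. In control islets it was Psap at 777, Lamp1 at 266 and Sqstm1 at 248 CPM per kilobase. Atp6v0d2 and Cav1 were among the 3 least abundant in every group, at 0.387 and 0.224 CPM per kilobase in particle, 1.52 and 0.143 in inflamed, and 0.178 and 0.292 in control islets.

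Promoters were searched for the core of the CLEAR element because many lysosomal genes are known targets of TFEB and TFE3. RefSeq start sites of the build GRCm38.p6 gave 39 promoters for 33 of the 40 genes, each with 250 bases before the start and 50 after it. The 7 genes not searched were Ctsb, Ctsh, Npc1, Atp6v0d2, Atp6v1h, Map1lc3a and Becn1, so strong increases such as those of Atp6v0d2, Ctsb and Ctsh are not covered. The letters TCACGTGA, which read the same on both strands, occurred in 6 of these 39 promoters, or 15.4%, against 0.974% of 32841 mouse promoters of the same length. The 6 promoters belonged to 6 of the 33 genes. The 6 genes were Ctsa, Ctsd, Gla, Mcoln1, Atp6v0d1 and Atp6v1a. In inflamed islets 5 of them rose and Atp6v0d1 was not called, while of all 33 genes 17 rose, 4 fell and 12 were not called. The inner letters CACGTG, also a palindrome and part of the core, occurred in 11 of the 39 promoters (28.2%), against 7.15% of all promoters, and that of Glb1, which fell, was among these. Of the cores, 4 are shown with 15 bases on each side, in the direction of the gene and with the core in capitals.
Ctsd, chr7:142387904-142387941, minus strand: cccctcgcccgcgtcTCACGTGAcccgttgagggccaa
Mcoln1, chr8:3500458-3500495, plus strand: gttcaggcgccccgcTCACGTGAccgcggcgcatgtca
Atp6v0d1, chr8:105566046-105566083, minus strand: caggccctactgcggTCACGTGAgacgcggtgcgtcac
Atp6v1a, chr16:44139369-44139406, minus strand: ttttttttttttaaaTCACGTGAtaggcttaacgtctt
Ctsa and Gla hold the core 2 times, and their whole promoters are shown for the spacing, again with the cores in capitals. In Gla the cores begin 228 and 195 bases before the start. In the second promoter of Ctsa one begins 13 bases before the start and the other 4 bases after it.
Gla, chrX:134600956-134601255, minus strand: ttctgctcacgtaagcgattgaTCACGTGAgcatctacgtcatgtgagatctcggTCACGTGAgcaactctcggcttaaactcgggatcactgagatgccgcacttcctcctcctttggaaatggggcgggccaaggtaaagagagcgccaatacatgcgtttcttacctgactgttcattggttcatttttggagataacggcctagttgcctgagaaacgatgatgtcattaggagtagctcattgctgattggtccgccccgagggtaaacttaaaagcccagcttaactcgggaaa
Ctsa, chr2:164833523-164833822, plus strand: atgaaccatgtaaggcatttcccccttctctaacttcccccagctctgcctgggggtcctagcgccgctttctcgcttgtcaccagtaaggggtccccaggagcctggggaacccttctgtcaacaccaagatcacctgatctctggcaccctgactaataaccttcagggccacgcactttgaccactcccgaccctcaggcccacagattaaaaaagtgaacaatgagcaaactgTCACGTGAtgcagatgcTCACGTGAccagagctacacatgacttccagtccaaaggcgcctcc
Gpnmb is shown beside them because it rose far more and has no such core in this window. Capitals mark an AP-1 match, TGANTCA, whose letters begin 8 bases after the start.
Gpnmb, chr6:49036268-49036567, plus strand: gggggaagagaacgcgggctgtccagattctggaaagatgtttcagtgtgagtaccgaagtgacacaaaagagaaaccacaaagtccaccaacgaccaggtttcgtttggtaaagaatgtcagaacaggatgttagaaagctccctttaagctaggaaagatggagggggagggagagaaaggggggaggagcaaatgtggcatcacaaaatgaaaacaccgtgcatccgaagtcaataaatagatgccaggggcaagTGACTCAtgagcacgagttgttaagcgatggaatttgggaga
On either strand, TGANTCA occurred in 4 of the 39 promoters (10.3%) and 7.81% of all promoters, TTCNNNGAA, the STAT-type GAS motif, in 3 (7.69%) and 8.30%, and TGACNNNGC, a core of the NRF2 response element, in 6 (15.4%) and 12.4%. These matches describe the letters in the windows and do not show binding. The CLEAR core is known from promoters of lysosomal genes, so its share in a set chosen as lysosomal is not a result about these islets.

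Of the 6 membrane genes, 3 rose with cytokines, as did 20.7% of all genes. Gpnmb (ENSMUSG00000029816, GRCm39 chromosome 6, 49013480 to 49047863), a transmembrane glycoprotein of phagocyte lysosomes, was at 236, 322 and 259 CPM in inflamed islets, against 51.7, 46.3 and 14.1 CPM in control islets. The lowest inflamed library lay far above the highest control, and the log2 fold change was 2.87 (SE 0.472, adjusted p = 0.00118, n = 3 each). Cd63, a tetraspanin of late endosomes, had 1286, 1144 and 1658 CPM in inflamed islets, against 719, 441 and 741 CPM in control islets (log2 fold change 1.10, SE 0.284, adjusted p = 0.0106). Mcoln1 encodes the calcium channel TRPML1 through which lysosomes signal to TFEB. It was at 110.2, 129.7 and 117 CPM in inflamed islets and 77.9, 64.6 and 78.5 CPM in control islets, with no overlap (log2 fold change 0.69, adjusted p = 0.0108). The Mcoln1 call was lost without control replicate 2 (adjusted p = 0.0576). Lamp1, the most abundant glycoprotein of the lysosomal membrane, was not called at 849, 1082 and 884 CPM in inflamed islets, against 719.7, 636 and 783 CPM in control islets (log2 fold change 0.40, adjusted p = 0.173). Its groups did not overlap. Lamp2, a receptor of chaperone-mediated autophagy, and Npc1, a cholesterol exporter whose gene overlaps Rmc1 on the other strand (at 111% of its level), had log2 fold changes of 0.42 and 0.61 and were not called either (adjusted p = 0.185 and 0.162).

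Of 7 cathepsins, the proteases of the lysosome, 6 rose in inflamed islets, as did 20.7% of all genes. Ctsb, a cysteine protease (ENSMUSG00000021939, chromosome 14, 63359911 to 63383372), was at 2819, 3021 and 3315 CPM in inflamed islets and 529, 515 and 489 CPM in control islets. Replicates were tight in both groups, and the log2 fold change was 2.58 (SE 0.297, adjusted p = 1.40e-04). Ctsh, an aminopeptidase of the same family, stood at 59.3, 52.2 and 79.3 CPM in inflamed islets, against 15.2, 12.2 and 8.89 CPM in control islets (log2 fold change 2.40, SE 0.311, adjusted p = 2.98e-04). Ctsz, a carboxypeptidase, reached 301, 189 and 345 CPM in inflamed islets and 72.3, 63.1 and 88.3 CPM in control islets (log2 fold change 1.90, SE 0.255, adjusted p = 3.62e-04). Ctsz overlaps Nelfcd, whose own level was 18.8% of it, on the other strand, and whether counting used strand is not given. Ctsk, best known from osteoclasts, was scarce. It had 3.21, 4.12 and 5.85 CPM in inflamed islets, against 0.743, 1.70 and 1.65 CPM in control islets, with no overlap (log2 fold change 1.69, SE 0.448, adjusted p = 0.0124). Without control replicate 1 the adjusted p of Ctsk was 0.0561.

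The increases of the remaining cathepsins were smaller. Ctsd, the main aspartic protease of lysosomes, was at 612, 709 and 774 CPM in inflamed islets and 465, 309 and 336 CPM in control islets (log2 fold change 0.92, SE 0.225, adjusted p = 0.00845). Leaving out control replicate 3 gave an adjusted p of 0.0533 for Ctsd. Ctsa, a carboxypeptidase that also shields other lysosomal enzymes, was at 281, 308 and 335 CPM in inflamed islets, against 227, 174 and 202 CPM in control islets (log2 fold change 0.62, adjusted p = 0.0218). The Ctsa call was lost without control replicate 2 (adjusted p = 0.0918), control replicate 3 (0.0958) or inflamed replicate 3 (0.0813). Ctsl, the exception, ranged from 169 to 397 CPM in inflamed islets and from 233 to 314 CPM in control islets, and its log2 fold change of -0.03 was not called (adjusted p = 0.944).

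Luminal enzymes and their helpers went both ways. Lipa, the acid lipase that frees cholesterol from its esters, was at 57.6, 67.9 and 41.2 CPM in inflamed islets, against 12.3, 17.3 and 7.78 CPM in control islets (log2 fold change 2.16, SE 0.372, adjusted p = 0.00138). Gla, the alpha-galactosidase that is deficient in human Fabry disease, had 39.0, 38.2 and 48.9 CPM in inflamed islets and 13.1, 13.6 and 13.6 CPM in control islets. Controls were nearly identical, and the log2 fold change was 1.65 (SE 0.187, adjusted p = 1.26e-04). Grn, which encodes the lysosomal growth factor progranulin, was at 314, 342 and 381 CPM in inflamed islets, against 193, 108 and 158 CPM in control islets (log2 fold change 1.18, SE 0.253, adjusted p = 0.00425). Npc2, the soluble partner of NPC1, was at 389, 326 and 466 CPM in inflamed islets and 295, 182 and 269.7 CPM in control islets (log2 fold change 0.66, adjusted p = 0.0428). That call was the least firm of those for inflamed against control islets. It was lost without control replicate 1 (adjusted p = 0.0554), 2 (0.164) or 3 (0.1), inflamed replicate 1 (0.0914) or 3 (0.159), or particle replicate 1 (0.0604) or 2 (0.0556), and over the alternatives Npc2 was called in 8 of 21. Psap was not called (log2 fold change 0.49, adjusted p = 0.162).

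Of the 8 luminal proteins 3 fell, while 19.0% of all genes fell. The 3 encode glycosidases, but the glycosidase gene Gla rose (log2 fold change 1.65), so the class did not move as one. Glb1, the lysosomal beta-galactosidase (ENSMUSG00000045594, chromosome 9, 114230144 to 114303966), was at 16.4, 17.0 and 21.5 CPM in inflamed islets, against 52.1, 44.7 and 49.7 CPM in control islets (log2 fold change -1.41, SE 0.311, adjusted p = 0.00494). Tmppe overlaps Glb1 on the same strand, at 10.9% of its level. Gusb, the beta-glucuronidase, was at 36.1, 35.6 and 26.8 CPM in inflamed islets, against 61.6, 76.4 and 61.2 CPM in control islets (log2 fold change -1.02, SE 0.207, adjusted p = 0.00326). Hexa, the alpha subunit of beta-hexosaminidase A, was at 179, 184 and 184 CPM in inflamed islets, against 352, 242 and 321 CPM in control islets (log2 fold change -0.74, adjusted p = 0.0347). All 3 inflamed libraries lay under all 3 controls for each of the 3 genes. The Hexa call was lost without control replicate 1 (0.0918) or 3 (0.0840), and without inflamed replicate 1 (0.0881), 2 (0.0716) or 3 (0.0606). In the same libraries 9 of 10 beta cell markers fell, with a median log2 fold change of -3.62. The part of the beta cell signal in the levels of Glb1, Gusb and Hexa was not tested.

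Of the 4 proton pump subunits, 3 rose, as did 20.7% of all genes. Atp6v1a, the catalytic subunit of the cytosolic sector, was at 121, 130.3 and 143 CPM in inflamed islets, against 59.6, 68.1 and 65.5 CPM in control islets (log2 fold change 1.03, SE 0.215, adjusted p = 0.00370). Atp6v1h, a regulatory subunit, was at 125, 141 and 138 CPM in inflamed islets and 85.9, 86.4 and 77.5 CPM in control islets (log2 fold change 0.69, adjusted p = 0.0177). Its call was lost without control replicate 1 (adjusted p = 0.0616), control replicate 3 (0.0974) or inflamed replicate 3 (0.0534). The 2 isoforms of subunit d differed in level, and their fold changes were not tested against each other. Atp6v0d1, the ubiquitous isoform, was at 222, 261 and 252 CPM in inflamed islets, against 195, 156 and 193 CPM in control islets. It was not called (log2 fold change 0.43, adjusted p = 0.0759), although its groups did not overlap and it was called in 2 of 21 alternatives. Atp6v0d2, the isoform of osteoclasts and macrophages, was at 5.39, 4.72 and 2.30 CPM in inflamed islets, against 0.371, 1.01 and 0.0717 CPM in control islets. That is 103 to 124 counts per inflamed library and 2 to 22 per control library, and the log2 fold change of 3.10 (SE 0.759, adjusted p = 0.00832) ranged from 1.05 to 4.18 over the alternatives, the lowest from log2(FPKM + 1).

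Of the 2 regulators of the network, Tfe3 rose and Tfeb was not called. Tfe3 was at 133, 107 and 102 CPM in inflamed islets, against 67.8, 62.6 and 70.2 CPM in control islets (log2 fold change 0.77, SE 0.174, adjusted p = 0.00577). Tfeb was at 12.1, 4.35 and 9.32 CPM in inflamed islets and 17.0, 12 and 15.1 CPM in control islets. Its groups overlapped in a single library of each, and the log2 fold change of -0.77 had an adjusted p of 0.140. Both proteins are regulated chiefly by moving between lysosome, cytosol and nucleus, which transcript levels do not measure.

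Of the 10 autophagy genes, 3 rose and 1 fell. With so few genes these counts are near the shares over all genes, of which 20.7% rose and 19.0% fell. Sqstm1, the cargo receptor p62 and a target of NRF2 (ENSMUSG00000015837, chromosome 11, 50090193 to 50101654), was at 2621, 1994 and 2134 CPM in inflamed islets and 984, 639 and 873 CPM in control islets (log2 fold change 1.43, SE 0.296, adjusted p = 0.00348). Gabarap, a ubiquitin-like protein of the autophagosome membrane, was at 697, 567 and 893 CPM in inflamed islets, against 431, 287 and 394 CPM in control islets (log2 fold change 0.96, SE 0.245, adjusted p = 0.0103). Atg7, the enzyme that activates such proteins, was at 30.2, 37.4 and 36.1 CPM in inflamed islets, against 23.2, 22.9 and 24.4 CPM in control islets (log2 fold change 0.56, adjusted p = 0.0268). The Atg7 call was lost without control replicate 1 (adjusted p = 0.112), 2 (0.0960) or 3 (0.105), and without inflamed replicate 2 (0.0746) or 3 (0.0913). Wipi1, which binds the lipid PI3P on forming autophagosomes (ENSMUSG00000041895, chromosome 11, 109464157 to 109502793), was at 5.95, 9.25 and 5.20 CPM in inflamed islets and 24.8, 48.7 and 38.1 CPM in control islets. Its highest inflamed library was below its lowest control, and the log2 fold change was -2.46 (SE 0.457, adjusted p = 0.00207).

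The remaining autophagy genes were not called. Map1lc3b, the usual marker protein of autophagosomes, was at 113, 107 and 145 CPM in inflamed islets, against 169, 136 and 141 CPM in control islets (log2 fold change -0.29, adjusted p = 0.241). Its counts may include reads of Zcchc14, which overlaps it on the other strand at 42.3% of its level. Log2 fold changes were 0.56 for its relative Map1lc3a, 0.47 for Gabarapl1, 0.24 for the initiating kinase Ulk1, -0.18 for Becn1, a subunit of the PI3-kinase of autophagy, and 0.43 for Atg5, a conjugation factor. The smallest adjusted p among these was 0.0913, for Atg5, which passed without particle replicate 3 (0.0441).

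Of the 3 genes of uptake and vesicle damage, Lgals3 rose and the others were not called. Of all genes 20.7% rose and 39.6% were called in either direction, so a count over 3 genes is no result about this role. Lgals3 encodes galectin-3, a sugar-binding protein of macrophages that gathers on ruptured endosomes and lysosomes (ENSMUSG00000050335, chromosome 14, 47605208 to 47623617). It was at 448, 240.2 and 408 CPM in inflamed islets, against 31.5, 34.1 and 18.8 CPM in control islets, and its log2 fold change of 3.70 was the largest of the 40 (SE 0.386, adjusted p = 7.22e-05). Cltc, the clathrin heavy chain, was at 136 to 156 CPM in inflamed islets and 148 to 179 CPM in control islets (log2 fold change -0.17, adjusted p = 0.497). Cav1, the caveolin of endothelial and stromal cells, had only 5 to 50 counts per library and was not called (log2 fold change -0.98, adjusted p = 0.385).

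**Figure D3:**
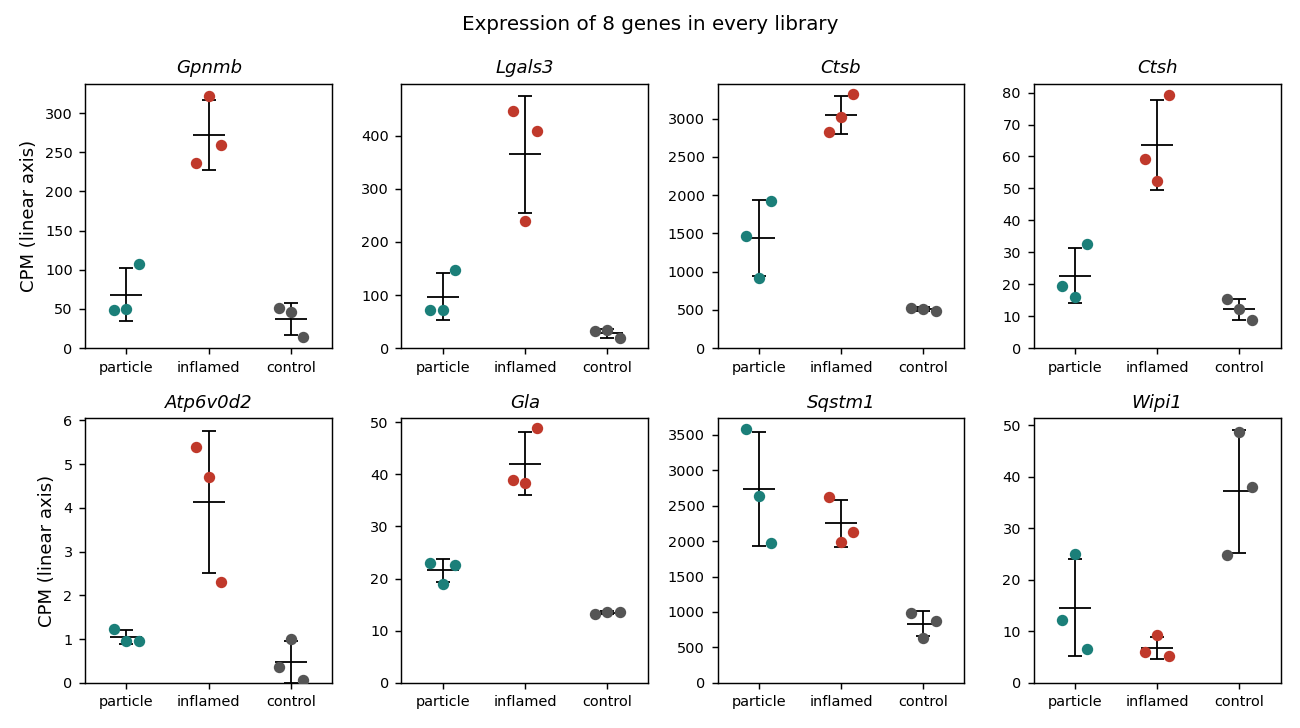
CPM of Gpnmb, Lgals3, Ctsb, Ctsh, Atp6v0d2, Gla, Sqstm1 and Wipi1 (linear axes from 0) in particle, inflamed and control islets. Points are libraries and bars are mean and SD, n = 3. In the first 6 panels all particle libraries lie below all inflamed ones, whereas Sqstm1 is as high in particle as in inflamed islets.

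With particles added to the cytokines, no gene of the set passed the test against inflamed islets, but many were lower in every particle library. None of the 40 genes was called, nor was any of the 17276 genes tested, which is 0% in either direction (edgeR). At an unadjusted p under 0.05 there were 14 of the 40 (35.0%) and 15.1% of all genes, or 2603. Groups did not overlap for 14 genes that were lower in particle than in inflamed islets (35.0%, against 6.82% of all genes) and for 0 that were higher (against 8.87% of all genes). The 14 were Gpnmb, Ctsa, Ctsb, Ctsd, Ctsh, Ctsz, Gla, Npc2, Lipa, Atp6v0d1, Atp6v0d2, Ulk1, Atg7 and Lgals3, of which 12 had risen in inflamed against control islets. That comparison uses the same inflamed libraries, so a gene high in them is favoured in both. The matching share over all genes is not given here, so the 12 cannot be called particular to the set. The median log2 fold change was -0.29 over the 40 genes and 0.04 over all genes. All 20 macrophage markers tested were uncalled as well, with a median log2 fold change of -1.46, and their part in the lower values was not tested.

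The 5 genes with the smallest p in this comparison were Lgals3, Gla, Ctsh, Ctsz and Gpnmb. Lgals3 was at 72.0, 72.0 and 147 CPM in particle islets, against 448, 240.2 and 408 CPM in inflamed islets (log2 fold change -1.91, SE 0.358, adjusted p = 0.112). Gla was at 23.1, 19.0 and 22.7 CPM in particle islets, against 39.0, 38.2 and 48.9 CPM in inflamed islets (log2 fold change -0.96, SE 0.184, adjusted p = 0.112). Both were lower in 3 of 3 particle libraries. Ctsh was at 19.5, 16.1 and 32.5 CPM in particle islets, against 52.2 to 79.3 CPM in inflamed islets (log2 fold change -1.49, SE 0.301, adjusted p = 0.121). Ctsz was at 119, 119.6 and 154 CPM in particle islets, against 189 to 345 CPM in inflamed islets (log2 fold change -1.09, SE 0.249, adjusted p = 0.121). Gpnmb was at 48.4, 49.9 and 107 CPM in particle islets, against 236 to 322 CPM in inflamed islets (log2 fold change -1.99, SE 0.456, adjusted p = 0.121). In each of these except Gla, particle replicate 3 was the highest of its group, and the other two particle libraries were close together. Without particle replicate 3 the adjusted p was 0.0141 for Lgals3, 0.0255 for Gla, 0.0149 for Ctsh, 0.0408 for Ctsz and 0.0257 for Gpnmb, and 6 genes of the set, with Ctsb as the sixth, were called lower and 1 higher. Of all genes tested without it, 306 were lower and 636 higher. That replicate also held the most macrophage transcripts of its group, 632 CPM summed against 478 and 408 CPM, and its part was not tested. With all libraries DESeq2 called 6 genes of the set lower and 0 higher (296 and 487 of all genes), and limma-voom called 0 (7 and 1 of all genes).

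Among the autophagy, pump and regulator genes, the particle and inflamed libraries overlapped for Sqstm1, Tfe3, Tfeb, Map1lc3b, Gabarap, Atp6v1a and Atp6v1h, but not for Atp6v0d1, Atp6v0d2, Ulk1 and Atg7. Sqstm1 was at 3585, 2638 and 1980.5 CPM in particle islets, against 2621, 1994 and 2134 CPM in inflamed islets, and the overlap was wide (log2 fold change 0.28, SE 0.290, adjusted p = 0.702). Tfe3 was at 107, 95.4 and 96.7 CPM in particle islets, against 102 to 133 CPM in inflamed islets (log2 fold change -0.19, adjusted p = 0.653). Mcoln1, at 126, 99.8 and 105 CPM in particle islets, and Cd63, at 1406, 930.5 and 1178 CPM, also overlapped the inflamed libraries (log2 fold changes -0.11 and -0.22, adjusted p = 0.827 and 0.770). For Atp6v1a the particle libraries held 105, 87.6 and 151 CPM, and for Atp6v1h 129, 97.0 and 156 CPM, on both sides of the inflamed values (adjusted p = 0.717 and 0.887). Map1lc3b was at 131, 134 and 114 CPM and Tfeb at 6.39, 13.7 and 7.05 CPM in particle islets (log2 fold changes 0.05 and 0.08, adjusted p = 0.925 and 0.954). Lamp1 was at 873, 666 and 737 CPM in particle islets (log2 fold change -0.31 against inflamed islets, adjusted p = 0.556). With 3 libraries a group these p-values do not show that the groups are alike.

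Other genes of the set, with larger p in this comparison, were also lower in every particle library. Ctsd was at 467, 487 and 426 CPM in particle islets, against 612 to 774 CPM in inflamed islets (log2 fold change -0.60, adjusted p = 0.241). Ctsa was at 226, 231 and 238 CPM in particle islets, against 281 to 335 CPM in inflamed islets (log2 fold change -0.41, adjusted p = 0.325). Both proteases had tight particle replicates. Lipa was at 28.1, 14.0 and 33.8 CPM in particle islets, against 41.2 to 67.9 CPM in inflamed islets (log2 fold change -1.13, adjusted p = 0.193). Npc2 was at 265, 300.2 and 281 CPM in particle islets, against 326 to 466 CPM in inflamed islets (log2 fold change -0.48, adjusted p = 0.368). The pump isoforms of subunit d were lower as well, without a call. Atp6v0d2 was at 1.23, 0.964 and 0.958 CPM in particle islets, against 2.30 to 5.39 CPM in inflamed islets (log2 fold change -1.97, adjusted p = 0.233), and Atp6v0d1 at 196, 204 and 209 CPM, against 222 to 261 CPM (log2 fold change -0.27, adjusted p = 0.519). Atg7 was at 25.7, 26.2 and 22.1 CPM in particle islets, against 30.2 to 37.4 CPM in inflamed islets (log2 fold change -0.49, adjusted p = 0.225). Ctsb was at 1464, 922 and 1916 CPM in particle islets, against 2819 to 3315 CPM in inflamed islets (log2 fold change -1.09, adjusted p = 0.149). Ulk1 was at 49.7, 43.9 and 44.7 CPM in particle islets, against 50.3 to 105 CPM in inflamed islets (log2 fold change -0.76, adjusted p = 0.202). Ctsk and Gabarap overlapped. Ctsk was at 2.95, 2.53 and 4.05 CPM in particle islets, against 3.21 to 5.85 CPM in inflamed islets (log2 fold change -0.47, adjusted p = 0.658), and Gabarap at 528, 509.8 and 584 CPM, against 567 to 893 CPM (log2 fold change -0.41, adjusted p = 0.464).

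The genes that fell with cytokines had higher means in particle than in inflamed islets, with a wide spread. Wipi1 was at 12.3, 25.1 and 6.53 CPM in particle islets, against 5.20 to 9.25 CPM in inflamed islets (log2 fold change 1.11, adjusted p = 0.272). Glb1 was at 37.0, 45.6 and 16.7 CPM in particle islets, against 16.4 to 21.5 CPM in inflamed islets (log2 fold change 0.85, adjusted p = 0.231), and Gusb at 41.6, 48.3 and 33.6 CPM, against 26.8 to 36.1 CPM (log2 fold change 0.33, adjusted p = 0.494). Hexa was at 265, 287 and 158 CPM in particle islets, against 179 to 184 CPM in inflamed islets (log2 fold change 0.37, adjusted p = 0.516). In all 4 genes particle replicate 2 was the highest and particle replicate 3 the lowest particle library. Replicate 2 also held the most beta cell marker transcripts of the group, 239987 CPM summed against 87476 CPM in replicate 1 and 149006 CPM in replicate 3, and the part of that difference was not tested. Glb1 was called higher without particle replicate 3.

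**Figure D4:**
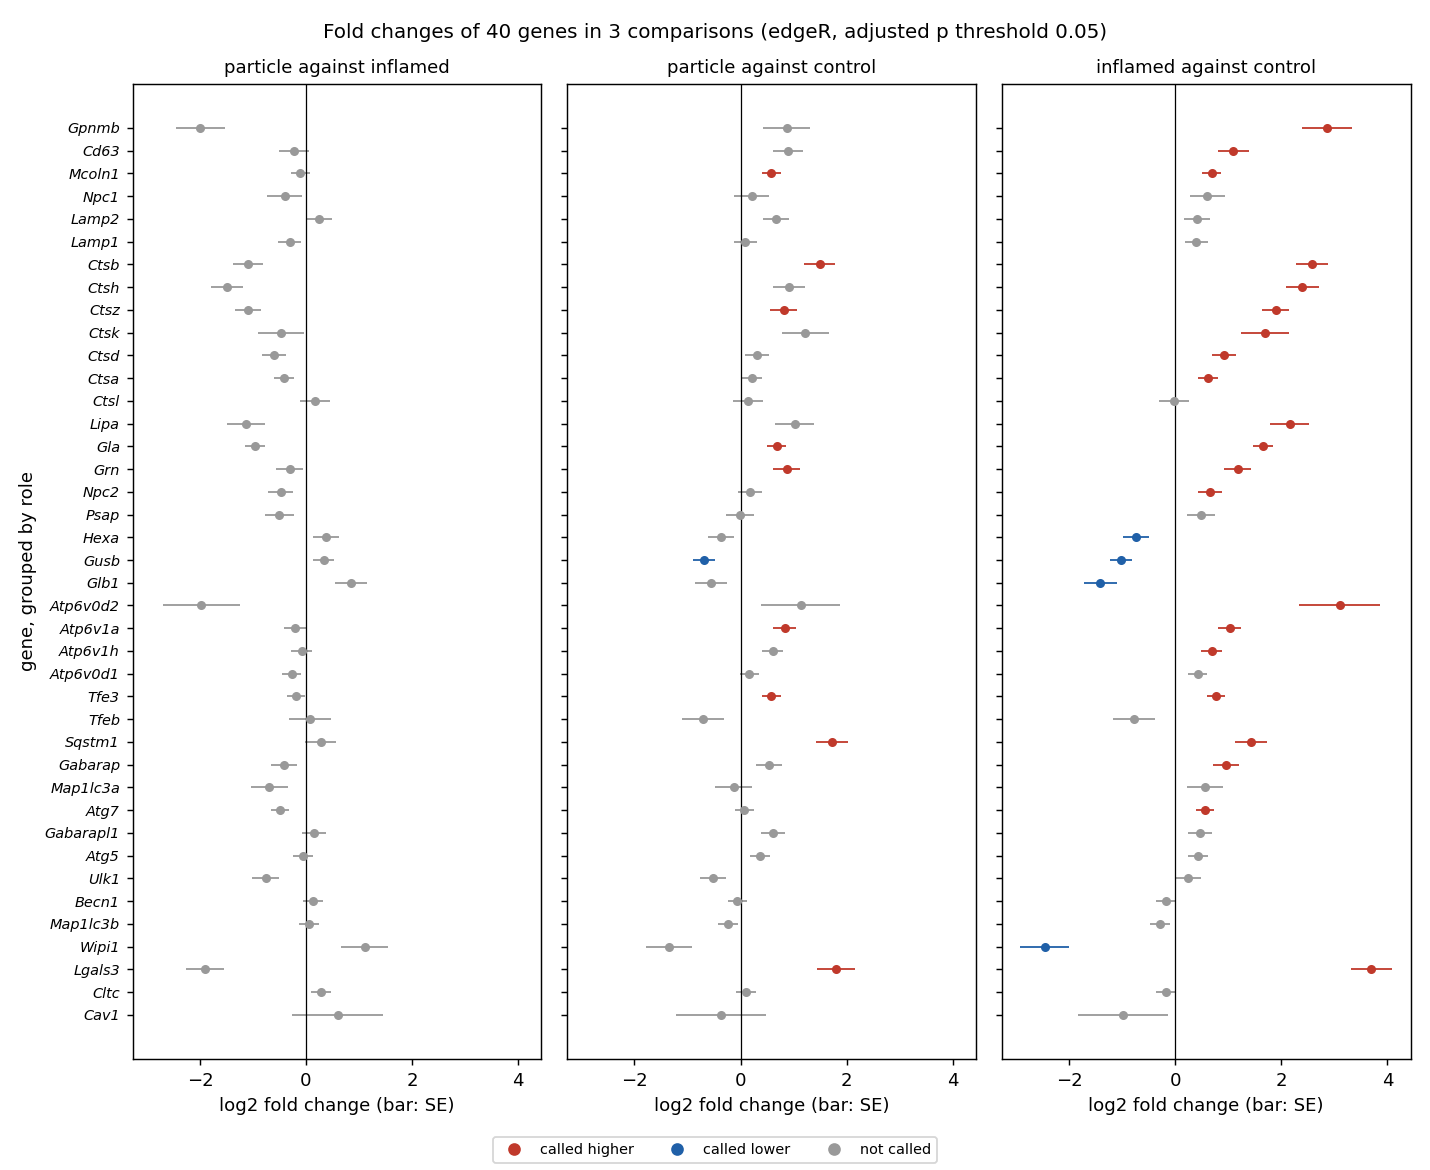
Log2 fold changes (horizontal axes, bars are SE) of 40 genes grouped by role, for particle against inflamed, particle against control and inflamed against control islets. Red and blue points passed the adjusted p threshold of 0.05, and no point did in particle against inflamed islets.

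Against untreated islets, 9 genes of the set were higher and 1 lower with cytokines and particles. Of all genes, 11.4% were higher and 5.92% lower, against 22.5% and 2.5% of the set, and the median log2 fold change was 0.34 over the 40 genes and 0.05 over all genes. All 10 called genes had moved the same way in inflamed islets, a comparison that shares the control libraries. Values did not overlap between particle and control islets for 18 genes that were higher (45%) and 3 that were lower (7.5%), against 22.9% and 20.6% of all genes. Sqstm1 was called at 1.72 on the log2 scale (SE 0.298, adjusted p = 0.00360), against 984, 639 and 873 CPM in controls. Ctsb, at 1464, 922 and 1916 CPM in particle islets and 529, 515 and 489 CPM in control islets, was higher by 1.49 on the log2 scale (SE 0.286, adjusted p = 0.00637). Lgals3 was higher by 1.79 on the log2 scale (SE 0.358, adjusted p = 0.00804). These 3 calls held under every alternative tried. Grn, at 340.1, 273 and 223 CPM in particle islets, rose by 0.87 on the log2 scale (adjusted p = 0.0375).

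The remaining calls against control islets were small in size and close to the threshold. Log2 fold changes were 0.81 for Ctsz (adjusted p = 0.0453), 0.68 for Gla (0.0288), 0.58 for Mcoln1 (0.0453), 0.58 for Tfe3 (0.0434), 0.83 for Atp6v1a (0.0248) and -0.69 for Gusb (0.0415). With Grn these are 7 calls that single libraries decide. The number of genes called higher was 4 without control replicate 1, 3 without control replicate 2, 3 without control replicate 3, 3 without particle replicate 1 and 4 without particle replicate 3. Over all genes the share called fell as well, to between 6.19% and 9.24% without 1 of these 5 libraries. Gusb lost its call when any control library was omitted, and also without inflamed replicate 1 or 2, or particle replicate 1 or 3, with adjusted p of Gusb between 0.0513 and 0.138. For Ctsz the highest adjusted p over the alternatives was 0.165, for Gla 0.130, for Grn 0.137, for Mcoln1 0.177, for Tfe3 0.160 and for Atp6v1a 0.102. With library totals in place of TMM factors, 17 genes were called higher and 0 lower, while the calls over all 17276 genes moved to 3190 higher and 597 lower (1961 and 1022 with TMM factors). Gpnmb, which cytokines alone raised, overlapped the controls and was not called (log2 fold change 0.87, adjusted p = 0.196). The remaining cathepsins were not called either, at log2 fold changes of 0.91 for Ctsh, 1.22 for Ctsk, 0.31 for Ctsd, 0.21 for Ctsa and 0.14 for Ctsl. Ctsh and Ctsk were higher than the controls without overlap, as was Cd63, which was not called (log2 fold change 0.89, adjusted p = 0.0527).

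Placed between the other groups, the particle mean lay between the inflamed and the control mean for 20 of the 21 genes that rose with cytokines (95.2%) and for all 4 that fell. These genes were chosen on the same inflamed and control libraries, and over all genes the share was 84.1% of those that rose and 95.2% of those that fell, so the count is not particular to the set. Among the 15 genes not called, 8 means lay between the others, 4 above both and 3 below both. Sqstm1 was the one risen gene outside, with means of 2734 ± 807, 2249.8 ± 329 and 832 ± 176 CPM in particle, inflamed and control islets (SD, n = 3 each). Among the 21 risen genes particle replicate 3 was the highest particle library for 11 and particle replicate 2 the lowest for 12. In a principal component analysis of the 40 genes, the first component held 76.9% of the variance. It placed particle replicates 1, 2 and 3 at 0.0311, -1.44 and 1.46, inflamed libraries at 4.36 to 4.65 and controls at -5.78 to -3.87. No particle library lay within the range of another group.

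Other genes of the same pathways, from 6 lists that hold none of the 40, are set beside the shares over all genes (20.7% higher and 19.0% lower in inflamed against control islets, 11.4% and 5.92% in particle against control islets). Among 38 endocytosis and scavenger receptor genes tested, 19 rose (50%) and 2 fell (5.26%) in inflamed against control islets. Lgals9, galectin-9, was at 159.7 ± 106 CPM in inflamed islets and 3.13 ± 1.38 CPM in control islets (SD, n = 3, log2 fold change 5.68, adjusted p = 5.97e-05). The tetraspanin Cd82 was at 373 ± 98.0 against 69.7 ± 14.4 CPM (adjusted p = 9.95e-05), the raft protein Flot2 at 333 ± 35.3 against 117 ± 26.1 CPM (adjusted p = 6.84e-04) and Msr1, which takes up modified lipoproteins, at 18.9 ± 3.27 against 1.66 ± 0.692 CPM (adjusted p = 7.39e-04). All 4 were also called higher in particle than in control islets, where 9 of the 38 rose (23.7%) and 2 fell (5.26%). Of 30 genes of the lysosomal membrane and of nutrient sensing, 14 rose (46.7%) and 1 fell (3.33%) with cytokines. Fnip2, a partner of folliculin at the lysosome, was at 185 ± 48.1 against 39.6 ± 10.5 CPM (adjusted p = 0.00142), Tmem192 at 77.8 ± 11.8 against 24.3 ± 10.3 CPM (adjusted p = 0.00117) and Laptm4a at 705 ± 89.6 against 336 ± 16.9 CPM (adjusted p = 0.00283), while the channel gene Tpcn1 was lower at 26.6 ± 6.15 against 92.0 ± 6.05 CPM (adjusted p = 4.52e-04).

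In the wider hydrolase list 9 of 35 genes rose and 9 fell (25.7% each, near the 20.7% and 19.0% of all genes), with a median log2 fold change of -0.15. Ctss, a cathepsin of antigen-presenting cells, was at 208 ± 47.8 CPM in inflamed and 22.4 ± 4.62 CPM in control islets (adjusted p = 8.91e-05) and Ctsc, which activates serine proteases, at 51.9 ± 12.8 against 8.41 ± 4.22 CPM (adjusted p = 8.60e-04). Arsb, arylsulfatase B, was lower at 27.3 ± 4.63 against 75.8 ± 1.21 CPM (adjusted p = 5.98e-04). Of 17 further V-ATPase genes 4 rose (23.5%, near the share of all genes) and 1 fell (5.88%). Tcirg1, the a3 subunit, was at 82.0 ± 1.98 against 26.6 ± 1.40 CPM (adjusted p = 9.92e-05), Atp6v1b2 at 583 ± 97.5 against 228 ± 7.98 CPM (adjusted p = 0.00132) and Atp6v1c1 at 209.5 ± 13.8 against 111 ± 7.50 CPM (adjusted p = 0.00407). The neuronal subunit Atp6v1g2 was lower, at 1.95 ± 0.571 against 7.04 ± 1.75 CPM (adjusted p = 0.00773).

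Further autophagy machinery was mostly not called, with 4 of 31 genes higher (12.9%) and 1 lower (3.23%) in inflamed against control islets. Atg3, a conjugating enzyme, was at 106 ± 7.66 against 54.3 ± 9.31 CPM (adjusted p = 0.00430), Atg16l1 at 61.6 ± 3.08 against 39.4 ± 1.43 CPM (adjusted p = 0.00863) and Atg14 at 33.8 ± 16.4 against 11.7 ± 1.38 CPM (adjusted p = 0.00876), while Atg13, part of the initiating complex, was lower at 72.3 ± 12.8 against 129 ± 18.4 CPM (adjusted p = 0.0260). Cargo receptors had 4 of 13 higher (30.8%) and 1 lower (7.69%). Optn, the receptor optineurin, was at 119 ± 11.8 CPM in inflamed islets, against 18.4 ± 3.71 CPM in control islets (adjusted p = 7.22e-05), and Retreg1, a receptor for endoplasmic reticulum, at 49.5 ± 2.36 against 7.48 ± 0.498 CPM (adjusted p = 7.31e-05). Tax1bp1 was at 167 ± 22.2 against 92.3 ± 2.91 CPM (adjusted p = 0.00678) and Calcoco1 was lower at 54.7 ± 9.99 against 111 ± 19.1 CPM (adjusted p = 0.0196). Particle islets held 74.1 ± 26.5 CPM of Optn and 41.9 ± 18.4 CPM of Retreg1, both called higher than control islets (adjusted p = 7.06e-04 and 1.78e-04). In particle against inflamed islets none of the genes in these 6 lists was called.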

How the data were processed

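The authors deposited 2 tables for the 9 libraries, one of raw whole-number counts per gene and one of FPKM values. HTSeq, DESeq2 and the build GRCm39 are named, per the submitters' processing notes. Versions, filters and the strand setting are not given in the sources used here. Within a library, the deposited FPKM values differ from count over gene length only by a constant factor. Groups came from the sample titles. The 3 columns without a group word were taken as controls, being those left once the others had been matched by name.

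The tests on counts used R 4.3.3 and edgeR 4.0.16 (filterByExpr with a smallest count of 10, TMM factors, robust quasi-likelihood fit to all 9 libraries). P-values were adjusted over all genes tested. The SE of a log2 fold change is its size divided by the square root of the F statistic. Alternatives used limma 3.58.1 and DESeq2 1.42.0. The procedure was tested on simulated data. Replicates of a group differed by 39.4 to 186 chi-square units per degree of freedom, so none was taken for a duplicate. Values in every library are given for called genes and for Lamp1, Ctsd, Sqstm1, Map1lc3b and Tfeb. Of each pathway list, up to 4 called genes with the smallest adjusted p for inflamed against control islets and a mean of at least 1 CPM are named. A gene that this rule would name is not reported here. The genes and lists were chosen with earlier results of these data known. Promoter sequences are RefSeq's. For genes of the set those of chromosome 18 were not used, while the 32841 mouse promoters were not restricted by chromosome. Gene coordinates are those of the deposited table.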

Additional observations from a re-analysis of the deposited data

How the results depend on the processing

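Against control islets, cytokines gave 16 to 22 genes higher and 3 to 4 lower when 1 library was left out, and all 25 called genes kept their direction under the 21 alternatives, 17 of them with their call in each. Over all genes the same omissions gave 2278 to 3786 higher and 2401 to 3588 lower, or 26% to 40.9% called, against 39.6% with all libraries. For particle against inflamed islets the count of genes called lower was 4 without a count filter and 6 with DESeq2, and 0 to 6 when 1 library was left out. The count called higher was 0 to 1 in the same omissions. Over all genes, 101 were called lower and 120 higher without a count filter, 296 and 487 with DESeq2, and 306 and 636 without particle replicate 3. For particle against control islets, genes called higher numbered 17 with library totals, 14 with DESeq2, 3 with limma on log2(FPKM + 1), 3 on log2(FPKM + 0.1), and 3 to 13 when 1 library was left out. Calls over all genes moved with these settings, to 21.9% with library totals, 24.8% with DESeq2, 6.71% and 6.91% with limma on FPKM, against 17.3%, so these moves are not particular to the set. Genes called lower numbered 2 with RLE factors, DESeq2, limma-voom or the replicate block, 0 with library totals, with the libraries compared alone or with either FPKM setting, and 0 to 2 when 1 library was left out. The causes were not tested. Library totals moved the median log2 fold change of all genes to 0.22 for inflamed against control islets, 0.13 for particle against inflamed islets and 0.32 for particle against control islets.

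Over the alternatives no called gene changed sign in the comparison that called it. Among the genes not called, both signs occurred for 2 in inflamed against control islets (Ctsl, Ulk1), 7 in particle against inflamed islets (Ctsl, Npc1, Tfeb, Atp6v1h, Map1lc3b, Atg5, Cav1) and 10 in particle against control islets (Lamp1, Ctsl, Psap, Npc2, Map1lc3a, Map1lc3b, Becn1, Atg7, Cltc, Cav1). In particle against inflamed islets the log2 fold change of Tfeb was -0.23 without inflamed replicate 2 and -0.36 without particle replicate 2 (range -0.36 to 0.41 when 1 library was left out). Map1lc3b was at -0.02 without inflamed replicate 2 (range -0.02 to 0.21). In particle against control islets Lamp1 was at -0.02 without control replicate 2 and -0.03 without particle replicate 1 (range -0.03 to 0.13), and Map1lc3b at 0.03 with library totals.

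Same-numbered libraries did not deviate together (correlations of -0.184 to 0.206), so the numbers were not taken as pairs. With the replicate block 23 of the 25 calls for inflamed against control islets remained, Hexa and Atg7 being lost, and for particle against control islets 10 genes were called, 8 of them shared, with Mcoln1 and Tfe3 lost and Wipi1 and Cd63 gained.

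Depth limits Cav1, with 5 to 50 counts per library, and Atp6v0d2, with 2 counts in its lowest library.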
